A study of Mus musculus with 12 samples.

Results

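The 7 genes described here encode the receptors that mouse cells use to bind IgG antibodies, with their shared signalling chain and one receptor-like relative. They were taken by symbol from the deposited table of 54547 genes, and each symbol matched 1 row. Fcgr1, Fcgr3 and Fcgr4 encode the activating Fc gamma receptors of phagocytes, and Fcgr2b encodes the inhibitory one. Fcer1g encodes the common gamma chain, a small transmembrane partner that the activating receptors need to reach the cell surface and to signal. Fcgrt encodes the heavy chain of the neonatal Fc receptor (FcRn), and Fcrls encodes an Fc receptor-like scavenger protein of rodents, known as a marker of mouse microglia.

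Bound, clustered IgG leads Src family kinases to phosphorylate the tyrosine activation motif of the common gamma chain, and the kinase Syk then docks there and starts phagocytosis and cytokine release. The inhibitory receptor carries an inhibition motif in its own tail instead, and recruits phosphatases that oppose this signal. FcRn works apart from both: paired with beta-2-microglobulin, it binds IgG at the acidic pH of endosomes and returns it to the cell surface, in endothelium, epithelium and myeloid cells alike. Microglia, the resident phagocytes of brain, are known to express the classical receptors, and tumor-associated macrophages use them to engulf antibody-coated cells.

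RNA had been sequenced from sorted mouse cells in 4 groups of 3 libraries. RasV12 GFP+ cells and RasV12 CD11b+ phagocytes came from the brain tumors of Msi1-CreER;RasV12 mice, and Control GFP+ cells and Control CD11b+ phagocytes from the cerebellum of Msi1-CreER;GFP mice, all on a mixed 129;C57BL/6 background. Msi1-CreER is a Cre recombinase under control of the neural stem cell gene Musashi-1 that becomes active with tamoxifen, so both genotypes carry it; RasV12 is an activated form of the Ras oncoprotein. CD11b is the integrin chain encoded by Itgam, carried by microglia, macrophages, monocytes and neutrophils, so the sorted phagocytes can hold several cell types. Tumor and cerebellum were each taken from 1 genotype, so tissue and genotype cannot be told apart, and age and sex are not given in the labels. Whether the 3 libraries of a group stem from different mice is not stated, and a p-value here therefore measures only how much these libraries vary, which may be technical.

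Library depth ranged from 2951629 to 34601205 reads and was lowest in RasV12 CD11b+ 1 and 2, with 3642570 and 2951629 reads, where 1 read was worth 4.46 and 5.54 normalized counts. The level of Itgam went with the labelled sort. It had normalized counts of 5010, 5085 and 5256 in Control CD11b+ 1 to 3 and 1350, 1357 and 3101 in RasV12 CD11b+ 1 to 3, against 0.5 in RasV12 GFP+ 1 and 0 in the other 5 GFP+ libraries. Reads also fell on genes that brain should not use: 1474 olfactory, vomeronasal and taste receptor genes had a mean of 78.2, 90.0 and 58.6 normalized counts per kb of exon in RasV12 CD11b+ 1 to 3 and 37.4 in Control CD11b+ 2. The same background was 4.61 and 4.70 in Control CD11b+ 1 and 3 and at most 3.37 in the GFP+ libraries. A mitochondrial share of 13.3 to 17.7% of reads in RasV12 CD11b+ libraries compared with 0.630 to 2.54% in their controls, while the order was opposite in GFP+ cells, with 1.53 to 2.62% in RasV12 and 20.1 to 30.4% in Control libraries. The part of depth, background and mitochondrial share in the results below was not tested beyond the values given beside them.

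Of the 7 genes, 4 sit together on chromosome 1 of build GRCm38: Fcgr2b (ENSMUSG00000026656.15) at chr1:170958617-170976547 on the minus strand, Fcgr4 (ENSMUSG00000059089.4) at chr1:171018920-171029761 on the plus strand, Fcgr3 (ENSMUSG00000059498.13) at chr1:171051174-171064935 on the minus strand and Fcer1g (ENSMUSG00000058715.11) at chr1:171229572-171234365 on the minus strand. Fcrls (ENSMUSG00000015852.13) at chr3:87250758-87263738 and Fcgr1 (ENSMUSG00000015947.10) at chr3:96282909-96293969 share chromosome 3, and Fcgrt (ENSMUSG00000003420.8) stands alone at chr7:45092990-45103851, all on the minus strand.

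Fcgr3 and Fcgr2b are near-copies over part of their length, which bears on how their reads were assigned. Their coding sequences, 801 bases for Fcgr3 and 1020 for Fcgr2b in GENCODE, aligned over 509 bases with 96.46% identity, whereas the other pairs among the 4 receptor chains reached 57.0 to 64.3%. The stretch below is the longest that the 2 genes share without a mismatch, 129 bases that start at base 263 of the Fcgr3 coding sequence and base 278 of that of Fcgr2b; a read of 50 bases inside it fits both genes.
Shared coding stretch of Fcgr3 and Fcgr2b: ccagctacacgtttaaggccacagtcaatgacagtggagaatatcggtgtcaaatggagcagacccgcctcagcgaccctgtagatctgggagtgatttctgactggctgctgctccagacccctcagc
Runs of 50 bases common to both made up 9.58% of those in Fcgr3 and 2.92% of those in Fcgr2b, and no other pair of the 7 genes shared any. Some of these runs lie outside the printed stretch. Counts of the 2 genes are therefore uncertain by the reads of all such runs, which the counting could have dropped or split.

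Upstream sequences are shown for the 4 genes that hold the purine-rich core GAGGAA, the core bound by the myeloid ETS factor PU.1, because all 4 were higher in CD11b+ than in GFP+ cells. Each line gives 150 bases from RefSeq on build GRCm38.p6, 5′ to 3′ on the strand of the gene, out of a window of 250 bases before to 50 after the annotated start; capitals mark GAGGAA or its reverse complement TTCCTC.
Fcgr1, chr3:96293970-96294119 (minus strand): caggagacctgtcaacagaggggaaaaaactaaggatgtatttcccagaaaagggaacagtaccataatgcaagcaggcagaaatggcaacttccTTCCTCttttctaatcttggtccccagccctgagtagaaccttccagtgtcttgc
Fcgr3, chr1:171059404-171059553 (minus strand): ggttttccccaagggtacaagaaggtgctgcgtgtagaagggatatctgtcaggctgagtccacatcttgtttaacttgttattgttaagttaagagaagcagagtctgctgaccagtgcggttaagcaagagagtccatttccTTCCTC
Fcgr4, chr1:171018776-171018925 (plus strand): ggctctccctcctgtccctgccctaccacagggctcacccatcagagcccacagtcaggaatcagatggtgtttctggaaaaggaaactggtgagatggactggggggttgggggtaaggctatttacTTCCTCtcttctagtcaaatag
Fcrls, chr3:87263525-87263674 (minus strand): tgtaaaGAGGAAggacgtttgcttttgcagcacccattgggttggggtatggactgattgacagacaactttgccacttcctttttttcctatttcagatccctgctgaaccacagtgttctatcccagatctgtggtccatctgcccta
Counted from the start site, the core began at position -55 in Fcgr1, -6 in Fcgr3, -22 in Fcgr4 and -144 in Fcrls, on the reverse strand in the first 3 and on the forward strand in Fcrls. Fcgr3 has another RefSeq start site, from which the core began at -15. The stretches of Fcgr3 and Fcrls lie inside the gene spans given above, which begin farther upstream. A run of 14 bases around the core, ttccTTCCTCtttt, was common to the Fcgr1 and Fcgr3 windows and was the longest run shared by any 2 of the 7. Searched on both strands, GAGGAA lay in the first window of 28.3% of 27025 genes, so 4 of 7 describes these genes and does not set them apart. These letters did not occur in the windows of Fcgr2b, Fcer1g and Fcgrt, of which Fcgr2b and Fcer1g were also higher in CD11b+ than in GFP+ cells.

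**Figure D1:**
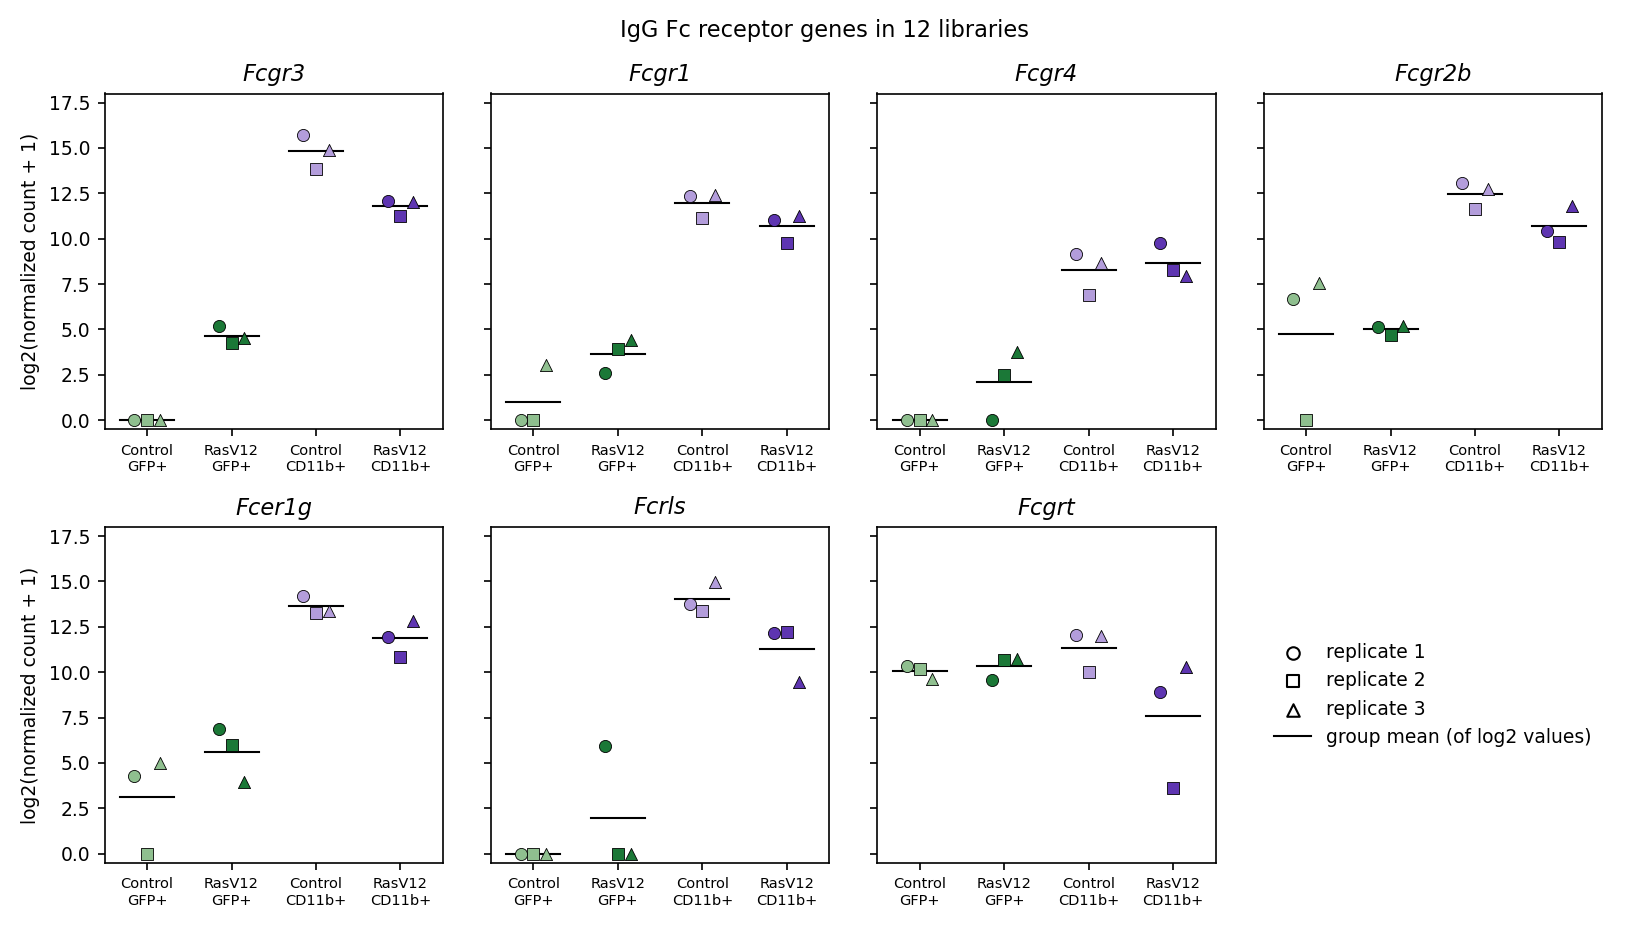
Level of each of the 7 genes in every library as log2(normalized count + 1), with 1 point per library (circle, square and triangle for replicates 1, 2 and 3) and a line at the group mean of the log2 values. All genes but Fcgrt are high in CD11b+ and low or absent in GFP+ libraries, and Fcgr3 is lower in all 3 RasV12 CD11b+ libraries than in any Control CD11b+ library.

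In control cerebellum, 6 of the 7 genes were higher in CD11b+ phagocytes than in GFP+ cells, by limma on log2(normalized count + 1) with Benjamini-Hochberg adjustment over 29835 genes at 0.05. In the same comparison 26.2% of all genes tested were called, 19.3% higher and 6.91% lower. The median log2 fold change of the 7 was 10.52, beside 1.80 over all genes. The exception was Fcgrt, at 1.30 ± 1.25 (SE; adjusted p 0.436).

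Fcgr3, the low-affinity activating receptor, was the highest of the 7 genes per length in the control phagocytes. It had 1852, 514 and 1038 FPKM in Control CD11b+ 1 to 3, a mean of 1134 ± 674 (SD, n = 3). No read of it was found in the 3 Control GFP+ libraries, against 147483 reads in the 3 Control CD11b+ libraries, so that it was at least 45300-fold higher in the phagocytes, taking a floor of 3 reads over the GFP+ group. Limma gave a log2 fold change of 14.81 ± 0.70 (SE; adjusted p 2.82e-07).

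Fcer1g, the common gamma chain, followed with 1309, 678 and 731 FPKM in Control CD11b+ 1 to 3 (mean 906 ± 350, SD, n = 3). The spread of Fcer1g and Fcgr3 overlapped, so their order within the control phagocytes is not settled by these libraries. Fcrls came next with 357, 270 and 840 FPKM (mean 489 ± 307), and it too overlapped the range of Fcgr3.

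The remaining receptors formed a lower tier. Fcgr1, the high-affinity receptor that can bind single IgG molecules, had 123, 51.5 and 128 FPKM in Control CD11b+ 1 to 3 (mean 101 ± 42.9, SD, n = 3). Fcgr2b, the inhibitory receptor, had 88.9, 32.6 and 69.8 FPKM (mean 63.8 ± 28.6). Fcgrt had 122, 29.4 and 116 FPKM (mean 89.0 ± 51.7), so these 3 overlapped each other. Fcgr4, an activating receptor known in mice from monocytes, macrophages and neutrophils, was the lowest with 27.6, 5.70 and 19.3 FPKM (mean 17.5 ± 11.1), below each of the other 6 genes in every one of these libraries. FPKM divides by the length of all annotated exons together, which is 5790 bases for Fcgr2b and 1736 for Fcgr3, so a gene with long rarely used exons reads low on this scale.

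The tumor gave the same 6 genes higher in phagocytes than in GFP+ cells, where 40.1% of all genes were called, 29.8% higher and 10.2% lower. The log2 fold change was 9.30 ± 1.41 for Fcrls (SE; adjusted p 0.000771 by limma), 7.12 ± 0.70 for Fcgr3 (7.66e-05) and 7.04 ± 1.01 for Fcgr1 (0.000587). Their order is not settled: from the reads pooled over each group, Fcrls was 75.5-fold higher, Fcgr3 156-fold and Fcgr1 165-fold. Fcgr4 differed by 6.58 ± 1.2 (adjusted p 0.00197), Fcer1g by 6.26 ± 1.15 (0.00207) and Fcgr2b by 5.67 ± 1.47 (0.00974). The Fcgr2b call was lost in 2 of 26 other settings. These were without RasV12 CD11b+ 1 and 2, and without Control CD11b+ 2 as well (log2 fold change 6.81), which each leave 1 RasV12 CD11b+ library. The Fcgr4 call was lost in 1 setting. The median log2 fold change was 6.58 for all 7 genes and 1.79 for all genes tested.

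Among tumor phagocytes Fcer1g was the highest of the 7 per length, with 265, 127 and 493 FPKM in RasV12 CD11b+ 1 to 3 (mean 295 ± 185, SD, n = 3). Fcgr3 followed with 149.5, 85.1 and 142 FPKM (mean 126 ± 35.3), and Fcrls with 116, 124 and 18.1 FPKM (mean 85.8 ± 58.8). The range of Fcgr3 overlapped both others, while that of Fcrls ended below that of Fcer1g. Fcgr1 had 48.5, 19.9 and 56.1 FPKM (mean 41.5 ± 19.1), Fcgr4 had 41.1, 14.8 and 11.7 FPKM (mean 22.5 ± 16.2) and Fcgr2b had 14.1, 9.40 and 37.4 FPKM (mean 20.3 ± 15). Fcgrt had 13.6, 0.30 and 36.2 FPKM (mean 16.7 ± 18.1). These 4 overlapped each other, and Fcgr4, last in every control library, was above Fcgr2b in 2 of the 3 tumor libraries.

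RasV12 CD11b+ phagocytes had less Fcgr3 than Control CD11b+ phagocytes, the only one of the 7 genes called between them. Its normalized counts were 53587, 14871 and 30037 in Control CD11b+ 1 to 3 and 4327, 2464.5 and 4114.5 in RasV12 CD11b+ 1 to 3. Every tumor library lay below every control library. The log2 fold change was -3.03 ± 0.70 (SE; adjusted p 0.0277 by limma), 8.17-fold lower; 5.36% of all genes were called, 2.39% lower and 2.97% higher. An exact two-sided permutation test of 3 against 3 gave p = 0.1, the smallest this design allows.

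The Fcgr3 difference kept its sign in 26 of 26 other settings and stayed past the threshold in 20 of them. Without Control CD11b+ 1 it was -2.58 (adjusted p 0.165), without Control CD11b+ 3 it was -3.00 (0.132) and without RasV12 CD11b+ 2 it was -2.77 (0.0641), so each of these 3 libraries decides the call. It was also lost without RasV12 CD11b+ 1 and 2 together (-2.81, adjusted p 0.157), with quantile scaling (-2.35, 0.0513) and with the 6 CD11b+ libraries fitted alone (-3.03, 0.118). With the background of each library subtracted it was -3.09 (adjusted p 0.00746), and without Control CD11b+ 2 and RasV12 CD11b+ 1 and 2 together it was -3.29 (0.0337), which leaves 1 tumor library, itself with a background of 58.6. The gene stood at 2493, 1420 and 2370 normalized counts per kb in RasV12 CD11b+ 1 to 3, far above the background of 78.2, 90.0 and 58.6 in the same libraries.

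The other 6 genes did not pass the test between the CD11b+ groups, and 5 of them had estimates below 0. Fcer1g had normalized counts of 19078, 9883 and 10644 in Control CD11b+ 1 to 3 and 3859, 1844 and 7186 in RasV12 CD11b+ 1 to 3, which did not overlap, with a log2 fold change of -1.76 ± 1.15 (SE; adjusted p 0.334 by limma). Fcrls had 13885, 10493 and 32671 in the controls and 4501, 4813 and 706 in the tumors, again without overlap, at -2.76 ± 1.41 (adjusted p 0.224). Together with Fcgr3, 3 of the 7 genes had groups that did not overlap, all lower in the tumor. Over all genes tested, 27.6% had groups that did not overlap, 8.59% lower and 19.0% higher. Over all genes tested, the SE had a median of 1.37 on the log2 scale, so small differences could not be detected with these libraries.

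Fcgr2b had 8580, 3143 and 6734 normalized counts in Control CD11b+ 1 to 3 and 1359, 903 and 3606 in RasV12 CD11b+ 1 to 3, and RasV12 CD11b+ 3 overlapped the controls. The log2 fold change was -1.79 ± 1.47 (SE; adjusted p 0.446 by limma). Fcgr1 had 5328, 2223 and 5528 in the controls and 2094, 858 and 2423 in the tumors, a difference of -1.30 ± 1.01 (adjusted p 0.416), also with overlap. The median over the 7 genes was -1.79, beside 0.74 over all genes tested.

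Fcgr4 was the only one of the 7 with an estimate above 0. It had 578.5, 120 and 405 normalized counts in Control CD11b+ 1 to 3 and 860, 310 and 244 in RasV12 CD11b+ 1 to 3. The groups overlapped, with a log2 fold change of 0.40 ± 1.2 (SE; adjusted p 0.853 by limma), and the sign was negative in 6 of the 26 other settings, among them without Control CD11b+ 2 (-0.27) and without RasV12 CD11b+ 1 (-0.14). Per kb its level of 685, 247 and 195 normalized counts in RasV12 CD11b+ 1 to 3 stood over a background of 78.2, 90.0 and 58.6.

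Fcgrt, the FcRn heavy chain, ran from 11.1 to 1267 normalized counts within the tumor phagocytes. It had 4272, 1031 and 4054 in Control CD11b+ 1 to 3 and 477, 11.1 and 1267 in RasV12 CD11b+ 1 to 3. The value of RasV12 CD11b+ 2 rests on 2 reads, 5.28 normalized counts per kb where the background of that library was 90.0. The log2 fold change was -3.75 ± 1.25 (SE; adjusted p 0.0903 by limma), and the groups overlapped. Without RasV12 CD11b+ 3 it was -5.10 and passed (adjusted p 0.0258), and without RasV12 CD11b+ 2 it was -1.75 (0.153).

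**Figure D2:**
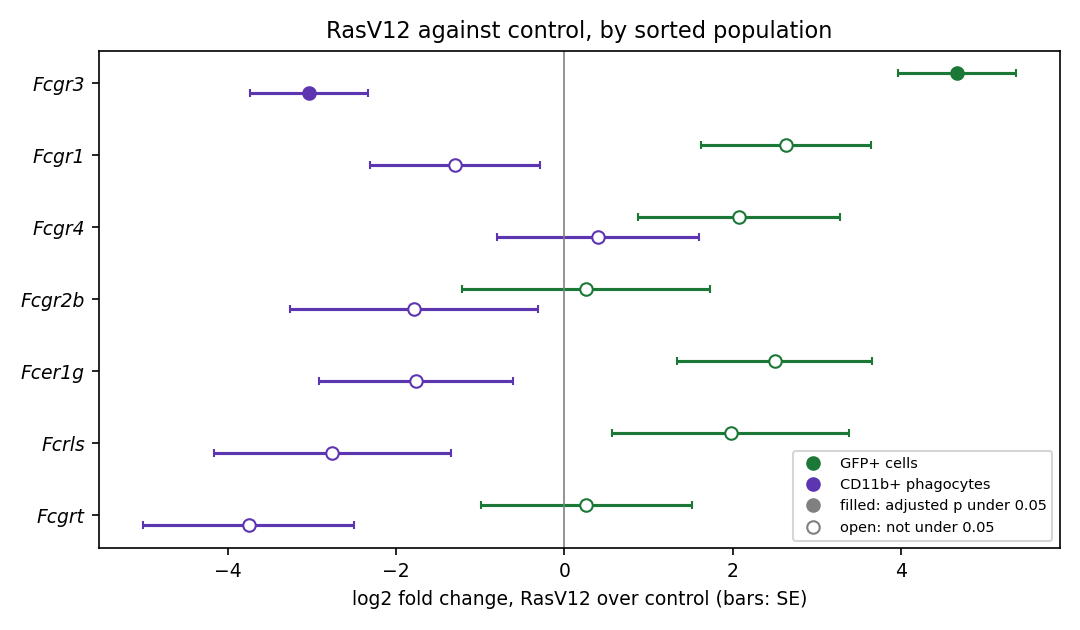
Log2 fold change of RasV12 over control for each of the 7 genes, in GFP+ cells (green) and CD11b+ phagocytes (purple), with bars of 1 SE from limma over 12 libraries; filled points passed an adjusted p of 0.05. Only Fcgr3 is filled, at 4.66 in GFP+ cells and -3.03 in CD11b+ phagocytes.

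The makeup of the 4 receptor chains was less dominated by Fcgr3 in the tumor phagocytes. These shares are a description with no test: each library's summed FPKM of Fcgr1, Fcgr2b, Fcgr3 and Fcgr4 was set to 100%. Fcgr3 made up 88.5, 85.1 and 82.7% of it in Control CD11b+ 1 to 3 and 59.0, 65.9 and 57.5% in RasV12 CD11b+ 1 to 3. The groups did not overlap, with means of 85.4% ± 2.93 and 60.8% ± 4.46 (SD, n = 3 each).

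Fcgr4 took 1.32, 0.944 and 1.54% in the controls and 16.2, 11.5 and 4.73% in the tumors, so that every tumor library was above every control library. Its mean share was 1.27% ± 0.30 in Control CD11b+ and 10.8% ± 5.78 in RasV12 CD11b+ (SD, n = 3 each). Fcgr1 had shares of 5.90 to 10.2% in controls and 15.4 to 22.7% in tumors, without overlap (means 8.21% ± 2.2 and 19.1% ± 3.64). With the background subtracted, Fcgr3 still had 82.7 to 88.6% against 59.4 to 74.1%, Fcgr4 0.584 to 1.52% against 3.50 to 15.5% and Fcgr1 5.89 to 10.2% against 13.5 to 22.6%. Without Control CD11b+ 2 and RasV12 CD11b+ 1 and 2, Fcgr3 had 88.5 and 82.7% in Control CD11b+ 1 and 3 and 57.5% in RasV12 CD11b+ 3, a library with a background of 58.6.

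The share of the inhibitory receptor and its balance with the activating ones were less fixed. Fcgr2b took 4.25 to 5.56% in controls and 5.57 to 15.1% in tumors, and with the background subtracted the ranges overlapped, at 4.24 to 5.54% and 3.67 to 14.5%. The ratio of summed activating FPKM (Fcgr1, Fcgr3 and Fcgr4) to Fcgr2b FPKM was 19.0 ± 3.06 in Control CD11b+ and 11.8 ± 5.73 in RasV12 CD11b+ libraries (SD, n = 3 each), with ranges of 17.0 to 22.5 and 5.61 to 17.0. After background subtraction the means were 19.4 ± 2.86 and 18.7 ± 11.1. Fcgr3 per common gamma chain, as a ratio of FPKM, was 0.757 to 1.42 in controls and 0.288 to 0.672 in tumors, without overlap.

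**Figure D3:**
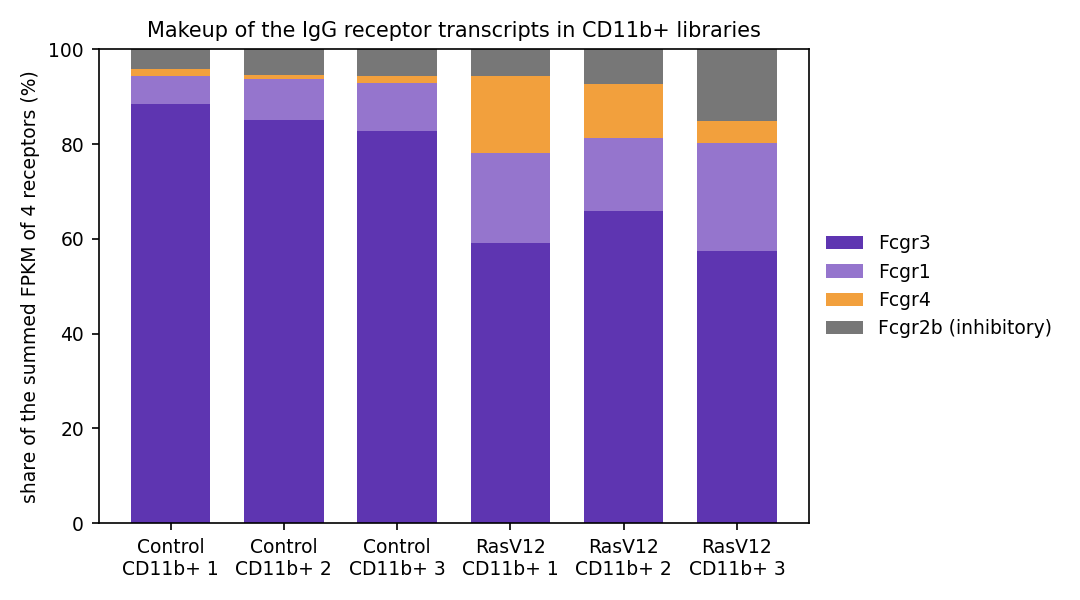
Share of each receptor chain in the summed FPKM of Fcgr3, Fcgr1, Fcgr4 and Fcgr2b, in percent, for each of the 6 CD11b+ libraries. Fcgr3 fills 82.7 to 88.5% of the control bars and 57.5 to 65.9% of the RasV12 bars, where Fcgr4 and Fcgr1 take more.

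Markers of the cell types that a CD11b sort can hold moved with these groups. In bulk RNA, fewer cells of a type and less RNA per cell cannot be told apart. The counts of called markers stand beside 2.97% of all genes called higher and 2.39% called lower. A sum over 10 pan-myeloid markers was 148059 to 529431 normalized counts in controls and 67576.5 to 106447 in tumors, and none of the 10 was called. Of 11 neutrophil markers, 3 were called lower, with sums of 20325 to 46657 and 3739 to 5128, and Ly6g had no read in RasV12 CD11b+ libraries. Of 9 homeostatic microglia markers, 2 were called lower, with sums of 141722 to 415881 and 33450.5 to 47709. Monocyte and recruited macrophage marker sums overlapped, at 4615 to 20759 and 9541 to 21282, with 1 of 10 called, higher. Of 8 B cell markers, cells known for Fcgr2b, 1 was called lower, with sums of 5243 to 6664.5 and 1326 to 3461. Estimates were above 0 for 4 of the 8 and below 0 for 4, with a median log2 fold change of -0.12. NK cell sums overlapped, at 75.2 to 1103 and 365.5 to 580, with 0 of 5 called. Mast cell and basophil sums were 141 to 674 and 1479 to 2525, with 0 of 4 called and with Mcpt4 and Tpsb2 at 0 in both groups. Endothelial sums, of cells known for Fcgrt, were 678 to 1733 and 4314 to 5776, with 2 of 9 called, both higher. The part of these cell types in the receptor levels was not tested.

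Set against the pan-myeloid sum of the same library, Fcgr3 and Fcgr4 had ranges that did not overlap between the groups, lower in the tumor for Fcgr3 and higher for Fcgr4. Fcgr3 was 8.93% ± 2.0 of that sum in Control CD11b+ libraries, range 6.62 to 10.1%, and 4.03% ± 0.488 in RasV12 CD11b+ libraries, range 3.65 to 4.58% (SD, n = 3 each). Fcgr4 was 0.0931% ± 0.0146, range 0.0808 to 0.109%, and 0.533% ± 0.346, range 0.230 to 0.911%. Fcer1g was close in both, at 4.21% ± 2.23 and 4.52% ± 2.05, as was Fcgr2b at 1.74% ± 0.336 and 2.05% ± 1.16. Fcgr1 had 1.24% ± 0.248 and 1.92% ± 0.565, Fcgrt 0.799% ± 0.0987 and 0.571% ± 0.590, and Fcrls 5.64% ± 2.61 and 4.18% ± 3.27. The sum leans on its highest genes, Csf1r and Ctss, with means of 122158 and 127074 in Control and 16349 and 36151 in RasV12 CD11b+ libraries. Others of the 10 markers moved less, such as Ptprc at 7844 and 6469, or the other way, as Aif1 at 2302 and 3042. These percentages depend on that choice of markers and are a description with no test.

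In GFP+ cells the receptors of phagocytes were near 0 and FcRn was not. Fcgrt had 1296, 1175 and 789 normalized counts in Control GFP+ 1 to 3 and 766, 1622 and 1669 in RasV12 GFP+ 1 to 3, which overlapped (log2 fold change 0.26 ± 1.25, SE; adjusted p 0.982 by limma). Per length that came to 31.0 ± 7.57 and 38.6 ± 14.5 FPKM (SD, n = 3 each), and every other gene of the 7 had a mean of 4.37 FPKM or less in both GFP+ groups. In the tumor, Fcgrt did not pass between the sorted populations either (log2 fold change -2.72 ± 1.25 for CD11b+ over GFP+, adjusted p 0.0973), with overlapping groups.

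Fcgr3 was higher in RasV12 GFP+ than in Control GFP+ cells, the only one of the 7 called; 6.79% of all genes were called, 4.14% higher and 2.65% lower. It had 36.1, 18.3 and 21.8 normalized counts in RasV12 GFP+ 1 to 3, from 173 reads in all, and no read in the 3 controls. Per kb that was 20.8, 10.5 and 12.6, above the background of 3.37, 2.40 and 1.83. The group was at least 33.4-fold higher by the floor of 3 reads, and limma gave a log2 fold change of 4.66 ± 0.70 (SE; adjusted p 0.00166), which was lost with a pseudocount of 10 (1.79, adjusted p 0.0828). The exact two-sided permutation test gave p = 0.1, the smallest possible.

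The level was low all the same. The RasV12 GFP+ mean of Fcgr3 was 0.699% of the RasV12 CD11b+ mean, and the corresponding share was 0.731% for Fcgr1, 1.62% for Fcgr2b, 1.21% for Fcgr4, 1.48% for Fcer1g and 0.595% for Fcrls. Itgam, the gene of the sort marker, had 0.00861% and Csf1r, the receptor of macrophage growth factors, 0.0577%. Ptprc, the pan-leukocyte gene CD45, had 1.66%, Itgb2, the partner chain of CD11b, 8.92%, and Cd68, a lysosomal protein, 56.3%. Another 7 myeloid genes lay below the receptors, from 0.0962% for Laptm5 and 0.144% for Ly86 to 0.413% for Spi1 and 0.448% for Cd53, with Aif1, Ctss and Tyrobp between them. The pan-myeloid marker sum was 154 to 263 normalized counts in Control GFP+ libraries, with Aif1, Csf1r, Itgam, Ly86 and Spi1 at 0. It was 1046.5 to 1847 in RasV12 GFP+ libraries, with none of 10 at 0. Of the 10, 2 were called higher and 1 lower, beside 4.14 and 2.65% of all genes. Most of the tumor sum was Cd68, with a mean of 34.4 in Control and 1237 in RasV12 GFP+ libraries. Laptm5 went from 109.9 to 10.4, whereas estimates were above 0 for 9 of the 10 markers. Markers of neural and vascular cells moved the other way: the sums in Control and RasV12 GFP+ libraries were 876233 to 1417840 and 2659 to 15528 for oligodendrocytes, 265687 to 290805 and 30060 to 86436 for astrocytes and Bergmann glia, 50608 to 72778 and 1554.5 to 2515 for neurons and 12819 to 19736 and 1842.5 to 2673 for endothelium. The part of carried-over phagocyte RNA, of these cell types and of the mitochondrial share in the Fcgr3 of GFP+ cells was not tested.

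**Figure D4:**
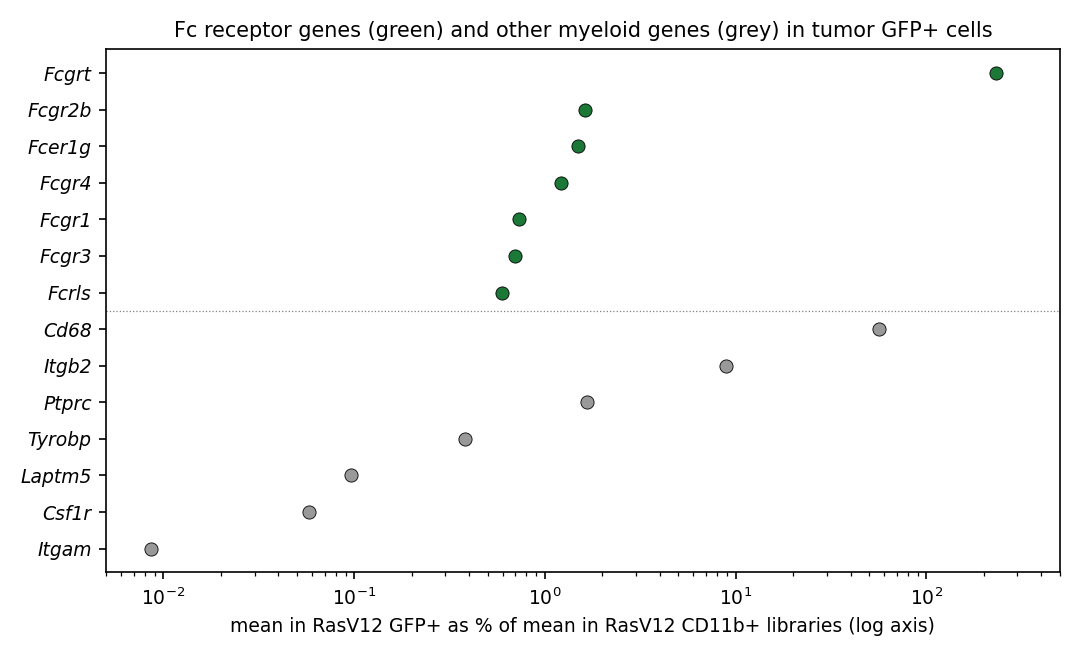
Mean normalized count in RasV12 GFP+ libraries as a percentage of the mean in RasV12 CD11b+ libraries, on a log axis, for the 7 genes (green) and 7 other myeloid genes (grey). The receptor genes lie between 0.595 and 1.62%, Fcgrt lies at 231%, and Itgam, the gene of the sort marker, lies at 0.00861%.

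The other 6 genes were not called between the GFP+ groups. Fcgr1 had normalized counts of 0, 0 and 7.1 in Control GFP+ 1 to 3 and 5.0, 14.3 and 20.0 in RasV12 GFP+ 1 to 3 (log2 fold change 2.63 ± 1.01, SE; adjusted p 0.157 by limma), and passed without Control GFP+ 3 (3.64, adjusted p 0.0395). Fcer1g had 18.4, 0 and 31.5 in the controls and 115, 61.3 and 14.7 in the tumors, with overlap (2.50 ± 1.15, adjusted p 0.259). Fcgr4 had no read in the controls and 0, 4.6 and 12.5 normalized counts in the tumors (adjusted p 0.398). All 132 reads of Fcrls in tumor GFP+ cells came from RasV12 GFP+ 1, and the controls had none (adjusted p 0.526). Fcgr2b had 103, 0 and 187 in the controls and 34.3, 24.6 and 36.1 in the tumors (0.26 ± 1.47, adjusted p 0.993), and its sign turned in 7 of 26 other settings.

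Fcgr3 thus had opposite differences in the 2 sorted populations, and the test of the difference itself passed. The RasV12 effect in CD11b+ minus that in GFP+ cells was -7.70 ± 0.99 on the log2 scale (SE; adjusted p 0.00126 by limma), where 4.4% of all genes were called, 2.34% lower and 2.06% higher. It passed in 25 of 25 other settings, with adjusted p from 1.19e-10 to 0.00992. A gene without reads in 1 group has a fitted fold change that depends on the pseudocount, so the size is not a bound. The other 6 genes had estimates of -1.68 (Fcgr4) to -4.73 (Fcrls) and did not pass, with adjusted p from 0.143 to 0.656.

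The genes that carry the receptor signal were read from lists chosen with earlier results of these data known. Of 28 genes of Fc receptor signalling, 24 were higher and 1 was lower in control CD11b+ than in control GFP+ cells, and 18 were higher and 2 lower in the tumor, where 19.3 and 6.91% of all genes were called higher and lower in control tissue and 29.8 and 10.2% in tumor. Between RasV12 and Control GFP+ cells 4 of the 28 rose and none fell, beside 4.14% of all genes higher and 2.65% lower, with a median log2 fold change of 2.05 beside 0.56 over all genes. Between the CD11b+ groups none rose and 1 fell, beside 2.97% of all genes higher and 2.39% lower, with a median of -1.35 beside 0.74.

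Syk, the kinase that docks on the phosphorylated gamma chain, had 0, 0.8 and 1.0 normalized counts in Control GFP+ 1 to 3 and 175, 43.6 and 98.4 in RasV12 GFP+ 1 to 3. It rose by 5.91 ± 0.85 on the log2 scale (SE; adjusted p 0.00125 by limma), a call lost with the background subtracted (0.275), quantile scaling (0.0628) and the FPKM table (0.0501). Per kb Syk stood at 18.7, 4.66 and 10.5 in RasV12 GFP+ 1 to 3, above their background of 3.37, 2.40 and 1.83. In RasV12 CD11b+ 1 it was below the background (75.2 against 78.2), and the fit shares 1 spread over the 12 libraries. Card9, an adaptor downstream of Syk, had 1.2, 0 and 1.0 in the controls and 664, 543 and 663 in the tumors (8.57 ± 1.36, adjusted p 0.00228), and passed in 26 of 26 other settings. The tumor GFP+ level of Card9 was above that of the RasV12 CD11b+ libraries, at 31.2, 0 and 57.7, which in turn were below the background per kb of those libraries.

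Vav3, a guanine nucleotide exchange factor of the Vav family, had 0, 0 and 67.1 normalized counts in Control GFP+ 1 to 3 and 1526, 1491 and 736 in RasV12 GFP+ 1 to 3 (8.19 ± 1.39, SE; adjusted p 0.00335 by limma). Dok1, an adaptor that dampens signalling by tyrosine kinases, went from 10.5 ± 16.7 to 572 ± 150 (SD, n = 3 each; adjusted p 0.0471), a call lost in 15 of 26 other settings, among them without Control GFP+ 1 or 3, any 1 of the RasV12 GFP+ or Control CD11b+ libraries, or RasV12 CD11b+ 2 (adjusted p 0.0569 to 0.143). Vav3 was not called in 3 of 26 other settings, among them edgeR (0.0551) and the background subtracted (0.114). Per kb Vav3 stood at 254, 248 and 123 in RasV12 GFP+ 1 to 3, above their background of 3.37, 2.40 and 1.83. In RasV12 CD11b+ 3 it was below the background (41.5 against 58.6). Fyn, a Src family kinase, was the 1 gene of the list that fell in CD11b+ cells, from 864, 292 and 1093 in Control CD11b+ 1 to 3 to 13.4, 83.1 and 72.7 in RasV12 CD11b+ 1 to 3. Its log2 fold change was -3.87 ± 0.69 (adjusted p 0.00973). The Fyn call was lost in 2 of 26 other settings, 1 of them without Control CD11b+ 3 (adjusted p 0.0508). In the tumor libraries it stood at 3.07 to 19.0 per kb, below their background. Fyn was far higher in both GFP+ groups, at 3364 to 5846.

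The other antibody receptors listed bind IgE, IgA or IgM, act in the cytosol or are receptor-like genes of lymphocytes. Of 12 listed, 9 were tested, and 1 rose in RasV12 GFP+ cells (4.14% of all genes). That was Trim21, the cytosolic receptor that binds antibody inside the cell, from no read in the controls to 244, 194 and 119 normalized counts (7.49 ± 1.07, SE; adjusted p 0.00121 by limma; 0.243 with the background subtracted). Per kb Trim21 stood at 65.8, 52.3 and 32.1 in RasV12 GFP+ 1 to 3, above their background of 3.37, 2.40 and 1.83. In Control CD11b+ 2 and RasV12 CD11b+ 2 and 3 it was below the background. None of the 9 was called between the CD11b+ groups (5.36% of all genes), where their median log2 fold change was 2.64, beside 0.74 over all genes. Ms4a2 and Fcer1a, the beta and alpha chains of the IgE receptor that shares the common gamma chain, had means of 124 ± 126 and 37.4 ± 27.7 in Control CD11b+ and 1187 ± 608 and 184 ± 139 in RasV12 CD11b+ libraries (SD, n = 3 each). Fcrl1, a receptor-like gene of B cells, had 663 ± 386 and 46.5 ± 33.9. Per kb, Ms4a2 stood at 187 to 612 over a background of 58.6 to 90.0 in RasV12 CD11b+ libraries, and Fcer1a in RasV12 CD11b+ 2 was at 61.0, below it.

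Of 9 listed companion genes, which are receptors and Tyrobp, an adaptor related to the common gamma chain, 8 were tested. None was called between the GFP+ groups (6.79% of all genes). Trem2, with at most 0.6 normalized counts in any library, was not tested. Between the CD11b+ groups 1 rose and none fell, beside 2.97% of all genes higher and 2.39% lower. That gene was Gp6, the collagen receptor of platelets, with 0.8, 16.5 and 0.9 normalized counts in Control CD11b+ 1 to 3 and 735, 637 and 43.8 in RasV12 CD11b+ 1 to 3 (6.14 ± 1.34, SE; adjusted p 0.0223 by limma). Testing needed a normalized count of 10 in 3 libraries, and outside the RasV12 CD11b+ group only Control CD11b+ 2 reached it. Gp6 was thus tested only through the group where it was high. Per kb Gp6 was at 125, 108 and 7.42 in the tumor libraries beside a background of 78.2, 90.0 and 58.6. It did not pass in 7 of 25 other settings. Among them were the background subtracted (adjusted p 0.0945) and RasV12 CD11b+ 1 (0.0522), Control CD11b+ 1 (0.0973) or Control CD11b+ 3 (0.0994) left out. Tyrobp had a mean of 17862 ± 8674 in Control CD11b+ and 6689 ± 2327 in RasV12 CD11b+ libraries (SD, n = 3 each) and was not called.

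Of 7 genes for the partner of FcRn and the endosomes it travels through, 1 rose and 1 fell in RasV12 GFP+ cells (4.14 and 2.65% of all genes), and 2 fell in RasV12 CD11b+ cells (2.39% of all genes). B2m, which encodes beta-2-microglobulin, the light chain of FcRn and of MHC class I, had 45726, 24699 and 24283 normalized counts in Control CD11b+ 1 to 3 and 11591, 6651 and 18750 in RasV12 CD11b+ 1 to 3. It fell by 1.42 ± 0.34 on the log2 scale (SE; adjusted p 0.0316 by limma), and rose by 1.39 ± 0.34 in GFP+ cells (0.0249). Both B2m calls lie near the threshold. The first was lost without Control CD11b+ 1 or 3, RasV12 CD11b+ 1 or 2, or RasV12 GFP+ 2, without RasV12 CD11b+ 1 and 2 together (-0.69, adjusted p 0.345) or Control CD11b+ 2 as well (-0.83, 0.200), with quantile scaling (-0.51, 0.333), the 6 libraries alone (0.165), edgeR (0.0999), no filter (0.0661) and the background subtracted (0.0623). The second was lost without any 1 of the 3 Control GFP+ libraries, RasV12 GFP+ 2 or RasV12 GFP+ 3, and with edgeR (0.176), the background subtracted (0.127), the FPKM table (0.0668), upper-quartile scaling (0.0656) and no filter (0.0640).

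Rab4a, a GTPase of fast recycling from endosomes, fell in GFP+ cells from 2826, 1196 and 1436.5 normalized counts in Control GFP+ 1 to 3 to 171, 230.4 and 279 in RasV12 GFP+ 1 to 3. Its log2 fold change was -2.92 ± 0.70 (SE; adjusted p 0.0236 by limma), lost without Control GFP+ 1 or any 1 of the RasV12 GFP+ libraries, with quantile scaling (0.268) and with the background subtracted (0.650). Per kb Rab4a stood at 97.4, 131 and 159 in RasV12 GFP+ 1 to 3, above their background of 3.37, 2.40 and 1.83. In RasV12 CD11b+ 2 it was below the background (69.3 against 90.0). Lamp2, a lysosomal membrane protein, fell in CD11b+ cells from 15280, 6242 and 16214 to 2901, 1412 and 2611 (-2.39 ± 0.50, adjusted p 0.0185). The Lamp2 call was lost in 6 of 26 other settings, among them without Control CD11b+ 1 or 3 or RasV12 CD11b+ 2.

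Of 10 complement and integrin genes, the other route by which phagocytes bind opsonized targets, 1 rose in GFP+ cells (4.14% of all genes) and 1 rose in CD11b+ cells (2.97% of all genes). Between the CD11b+ groups, 8 of the 10 estimates were below 0 and 2 above, with a median log2 fold change of -1.85 beside 0.74 over all genes. Between the GFP+ groups, 8 were above 0 and 1 below, with a median of 1.11 beside 0.56. The gene called in GFP+ cells was Itgb2, with no read in the controls and 157, 50.4 and 193 normalized counts in RasV12 GFP+ 1 to 3 (6.86 ± 0.86, SE; adjusted p 0.000537 by limma). The gene called in CD11b+ cells was Vsig4, a complement receptor of tissue macrophages, with 0, 0 and 2.6 in Control CD11b+ 1 to 3 and 165, 94.1 and 165 in RasV12 CD11b+ 1 to 3 (6.49 ± 1.0, adjusted p 0.00574). Testing needed a normalized count of 10 in 3 libraries, which only the RasV12 CD11b+ libraries reached. Vsig4 could therefore be tested only as a gene high in that group. It stood at 111, 63.4 and 111 per kb, close to the background of 78.2, 90.0 and 58.6. Its call was lost in 3 of 26 other settings, among them with the background subtracted (3.98, adjusted p 0.0932).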

How the data were processed

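Normalized counts and FPKM per gene were used, in 12 libraries of 4 groups. The authors deposited normalized counts, a signal that is a count divided by a factor per library, and FPKM values, which also divide by exon length. HISAT2 2.1.0, Subread 1.6.2, featureCounts, DESeq2 1.20.0 and bcl2fastq 2.17.1.14 are named in the submitters' processing notes, with build GRCm38.p6, but the role of each is not given here. Per the labels' protocols, cDNA came from a SMARTer low-input kit and Nextera XT, which does not mark strand, so reads of overlapping antisense genes cannot be told apart. In each library, 99.967% or more of the normalized counts above 0 could be divided by 1 factor to give a whole number (tolerance 0.05), and these are the reads quoted.

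A gene was tested if 3 libraries or more had a normalized count of 10 or higher, which held for 29835 genes and all 7 members. Limma-trend (version 3.58.1 in R 4.3.3) was fitted to log2(normalized count + 1) of the 12 libraries, with the 4 group means as terms. P-values are two-sided and adjusted by Benjamini-Hochberg over all genes of each of 5 comparisons, at 0.05. Fold changes are on the log2(value + 1) scale, which understates low genes. Members and gene lists were chosen with earlier results of these data known; of each list, at most 4 genes that passed with the smallest adjusted p were named, with others set beside the receptors (Ms4a2, Fcer1a, Fcrl1, Tyrobp) and list genes for which a value was needed. Each ± is the SE of the limma fit or an SD over 3 libraries, as stated beside it or earlier in its paragraph. The floor of 3 reads covers counting error only. The fit was tested on simulated data first.

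Alternatives were the FPKM table, other pseudocounts and filters, 2 scalings, 6 libraries alone, the replicate number as a block, count models on the whole reads (edgeR 4.0.16 and DESeq2 1.42.0) and each library left out. Background subtraction and leaving out 3 libraries together were added after seeing the data. Gene IDs matched GENCODE for 98.3% of genes. Promoters came from RefSeq tables on GRCm38.p6, where all 7 genes matched; coding sequences were aligned with Biopython 1.88.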

Additional observations from a re-analysis of the deposited data

Results flagged for a closer look

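The RasV12 effect, as a log2 fold change over control, differed between the sorted populations for 11 of the genes named. The test was limma on the difference of effects with adjustment over 29835 genes, of which 4.4% were called. List genes were named mostly for passing a comparison, this one included. The 11 are therefore partly selected by the same test, and their number is not a rate to set against that share. Values are the effect in CD11b+ minus that in GFP+ cells, with SE. Among the Fc receptor genes it was Fcgr3 alone, at -7.70 ± 0.99 (adjusted p 0.00126), lower in 3 of 3 tumor libraries than in the controls in CD11b+ and higher in 3 of 3 in GFP+ cells.

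Among signalling genes, Card9 differed by -13.36 ± 1.93 (adjusted p 0.00245), Syk by -6.78 ± 1.2 (0.00772), Fyn by -3.99 ± 0.97 (0.0351) and Dok1 by -10.73 ± 2.75 (0.0432). Trim21 differed by -8.47 ± 1.51 (adjusted p 0.00798) and Itgb2 by -8.85 ± 1.22 (0.00179). Of the genes around FcRn, B2m differed by -2.81 ± 0.48 (adjusted p 0.00659), Lamp2 by -3.50 ± 0.70 (0.0139) and Rab4a by 3.95 ± 1.0 (0.0402). Vsig4 differed by 6.49 ± 1.41 (adjusted p 0.0207) and had no read in any GFP+ library. It entered the test only through the RasV12 CD11b+ libraries, where it was high.

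Some of these calls rest on few libraries or on 1 setting. With any 1 library left out, the calls of Fcgr3, Card9, Syk, Trim21, Itgb2 and B2m were kept. The Lamp2 call was lost without Control CD11b+ 3 (adjusted p 0.0519). The Fyn call was lost without any 1 of the 6 GFP+ libraries or Control CD11b+ 1 or 3 (0.0551 to 0.102), that of Vsig4 without Control GFP+ 2 or 3, any 1 of the RasV12 GFP+ libraries or Control CD11b+ 1 (0.0505 to 0.0581), and that of Dok1 without Control GFP+ 1 or 3, any 1 of the RasV12 GFP+ libraries, Control CD11b+ 1 or 3, or RasV12 CD11b+ 2 (0.0615 to 0.121). The Rab4a call was lost without any 1 of the GFP+ libraries, Control CD11b+ 1 or 3, or RasV12 CD11b+ 1 or 3 (0.0509 to 0.0990). With the background subtracted, Syk (0.0959), Trim21 (0.150), Vsig4 (0.250), Dok1 (0.0651) and Rab4a (0.749) were not called. Of 25 other settings in all, the call was lost in 16 for Dok1, 15 for Rab4a, 10 for Fyn and 9 for Vsig4. It was lost in 3 for Syk, 2 for Lamp2 and 1 for Trim21, and in none for Fcgr3, Card9, Itgb2 and B2m.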

How the results depend on the processing

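Of the 7 genes, the number called in GFP+ cells (1) was 0 with a pseudocount of 10, 3 with DESeq2 and 1 to 2 with 1 library left out. In CD11b+ cells (1) it was 3 with a pseudocount of 10, 0 with quantile scaling, 0 with the 6 libraries of the comparison alone (0 genes called in all, 6845 at an unadjusted p under 0.05), 0 without RasV12 CD11b+ 1 and 2, and 0 to 2 with 1 library left out. For the difference of effects (1) it was 2 with DESeq2. The counts for CD11b+ against GFP+ cells (6 and 6) stayed between 5 and 7. No paired samples were evident (same-numbered libraries correlated at most 0.09 in their deviations); with the replicate block Fcgr3 kept its calls, at adjusted p 0.0391 in CD11b+ and 0.00323 in GFP+ cells, and the counts over the 7 genes did not move; among the other genes named, the block lost the Dok1 calls in GFP+ cells (0.0600) and for the difference of effects (0.0557). Fcgr2b in GFP+ cells (0.26) turned to -0.42 with FPKM, -0.55 with a pseudocount of 10, -0.18 with quantile scaling, -1.56 with edgeR, -1.61 with DESeq2, -0.61 with background subtracted and -2.12 to 1.66 with 1 library left out. Fcgr4 in CD11b+ cells (0.40) turned to -0.22 with upper-quartile scaling, -0.74 with edgeR, -0.31 without RasV12 CD11b+ 1 and 2, -0.98 without Control CD11b+ 2 as well, and -0.27 to 0.87 with 1 library left out. For Fcgr2b the difference of effects ran from -3.44 to 0.33 with 1 left out. On normalized counts in place of FPKM the activating to inhibitory ratio was 5.92 and 3.75, and the Fcgr3 share 74.0 and 48.0%, in Control and RasV12 CD11b+ libraries. Over all genes the CD11b+ comparison called 886 higher and 713 lower, against 30 and 404 with edgeR, 1316 and 1087 with DESeq2, 3436 and 1300 with a pseudocount of 10, 739 and 1682 with quantile scaling and 623 and 2317 with the background subtracted; their median over all genes tested was 0.74 on the log2 scale, 0.13 with quantile scaling, 0.21 with upper-quartile scaling and -0.55 with the background subtracted. The cause of these shifts was not tested.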

Other observations

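The genes whose level across the 12 libraries was most like that of Fcer1g, among 15648 ranked by Pearson r of log2(normalized count + 1), were Ctss (0.984), a lysosomal protease of phagocytes, Nckap1l (0.981), a subunit of the actin-regulating WAVE complex in blood cells, Apbb1ip (0.974), Rhoh (0.973) and Maf (0.972). Those most like Fcgrt were Fam120b (0.970), Taz (0.969), Exosc8 (0.968), Prr14 (0.966) and Tmed7 (0.966), none of them a myeloid marker of the lists used. Fcgrt had 11.1 normalized counts in RasV12 CD11b+ 2, from 2 reads, and 477 or more in every other library. That shallow library therefore weighs heavily in its ranking. The 7 members were left out of the ranking. Over the 6 CD11b+ libraries, Fcgrt had r of 0.949 with Fcgr1 and 0.930 with Fcer1g, but 0.0917 with Fcgr4 and 0.313 with Fcrls. These values describe the ranking; the libraries fall into 4 groups and are not 12 independent points.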
